A study of Mus musculus with 4 samples.

Results

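The complement system genes described here are 36 transcripts among 39179 genes in the deposited table of normalized counts. They were chosen by symbol from what is known of the cascade, with earlier results of these data known. Each symbol had a single row. They cover the classical, lectin and alternative routes of activation, the central and terminal components, the anaphylatoxin receptors and the regulators. Polyadenylated RNA of epididymal white adipose tissue, the visceral fat pad of male mice, was sequenced in 2 libraries from Nck2-/- mice (KO, labelled Nck2 KO replicates 1 and 2 and Nck2 mutant) and 2 from Nck2+/+ mice (WT replicates 1 and 2). All 4 came from a mixed genetic background, and the sources used here give no treatment, no age and no account of how the allele was made. The design asks which transcripts differ with the Nck2 genotype. The labels do not say that replicates came from separate animals, so p-values measure the spread between these libraries, which may be technical.

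Complement is a cascade of plasma proteases and of membrane proteins that marks particles for uptake, attracts leukocytes and punctures membranes. C1q bound to a surface activates C1r and C1s, which cut C4 and C2, while mannose-binding lectins and ficolins reach the same step through MASP proteases. The alternative route amplifies C3 cleavage with factor B, factor D and properdin. Liver supplies most circulating components, but adipocytes are the main source of factor D, known as adipsin, and macrophages are a main source of C1q.

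The values are normalized read counts, the reads of a gene divided by a size factor of the library, and the libraries held 37980391 and 33880872 gene reads in KO and 31831904 and 34056187 in WT. Transcripts of several other cell types differed between the groups, and these differences and the genotype cannot be told apart. The list of 30 epididymis and male tract genes took 0.000369% and 0.000342% of KO reads against 1.23% and 1.09% of WT reads, with 20 of its genes at 0 reads in both KO libraries, and most of those tested reached the mean of 10 normalized counts needed for a test through WT alone, so calls are not counted for it. Most of its WT reads came from Crisp1, with 337444 in replicate 1 and 359564 in replicate 2. Other genes of the list varied in how far the WT libraries differed, with Svs4 at 11518 and 7 reads and Lcn12 at 109 and 116. Smooth muscle genes were lower in 11 of 12, at 0.121% and 0.13% of KO reads against 1.81% and 2.43% of WT reads. Mature adipocyte genes were higher in 16 of 20, at 6.05% and 6.61% of KO reads against 2.53% and 1.71% of WT reads, and macrophage genes in 16 of 21, at 0.193% and 0.173% against 0.109% and 0.106%. Beside these counts, 22.4% of all tested genes were called higher and 24.4% lower in KO. Nck2 itself was at 1076 and 947 in KO and at 1279 and 1667 in WT (log2 fold change -0.53, SE 0.157, limma adjusted p = 0.0509, and 0.0184 by DESeq2), a count that does not check the genotype labels, since the deleted stretch of the gene is unknown here.

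Adipsin dominated the complement reads in every library. Cfd supplied 46.7% and 45.9% of the reads of the 36 genes in KO and 55.4% and 47.5% in WT. The 36 genes together took 0.996% of library reads in KO replicate 1 (exact Clopper-Pearson 95% interval 0.993 to 0.999) and 0.744% in KO replicate 2 (0.741 to 0.747), against 0.741% (0.738 to 0.744) and 0.589% (0.586 to 0.591) in WT replicates 1 and 2. These intervals cover counting error alone, and KO replicate 2 and WT replicate 1 lay at nearly the same share. The part supplied by C4b was 14.4% and 17.5% in KO and 4.18% and 4.3% in WT, whereas that of C7 was 0.928% and 1.09% in KO and 6.22% and 6.97% in WT.

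**Figure D1:**
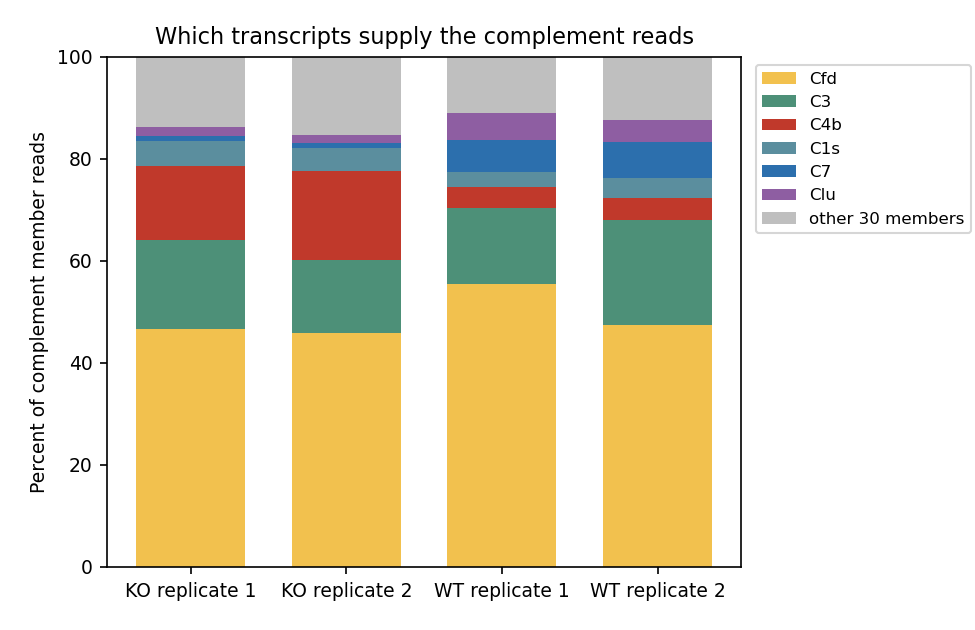
Stacked bars give the percent of all reads of the 36 complement genes (y axis) that came from each named transcript in each library (x axis). Cfd is the tallest segment in all 4 libraries, the C4b segment is 14.4% and 17.5% in KO against 4.18% and 4.3% in WT, and the C7 segment is 0.928% and 1.09% against 6.22% and 6.97%.

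Of the 36 genes, 29 had a mean of 10 or more normalized counts and were tested, and 7 (Mbl1, Mbl2, Fcnb, Hc, C8a, C8b and C9) were too low. Tests used limma on log2(normalized count + 1) over 16710 genes, with Benjamini-Hochberg adjustment at 0.05, and each fold change is KO minus WT on that scale, which understates the change of low genes. Of the 29, 17 rose in KO, 2 fell and 10 did not pass. Over all 16710 genes 22.4% were called higher and 24.4% lower, and the median log2 fold change was 0.89 for the 29 and -0.01 for all genes. Both KO libraries lay above both WT libraries in 19 of the 29 and below in 7, against 38.9% and 40.6% of all tested genes. Without WT replicate 1 the count was 10 higher and 1 lower, with 7.21% and 9.84% of all genes called, and without WT replicate 2 it was 6 and 1, with 3.14% and 6.35% called. Without KO replicate 1 it was 16 and 3, beside 17% and 20.6%, and without KO replicate 2 it was 17 and 2, beside 14.3% and 19.1%. DESeq2 gave 17 and 3, beside 21.1% and 23.5%, edgeR 17 and 2, beside 21% and 24.4%, and the replicate block 17 and 3, beside 16.4% and 20%. In a fit that leaves out a library, the lone one is assumed to vary like the other pair and fewer degrees of freedom remain. The least two-sided p that an exact permutation of 2 against 2 libraries can give is 0.333, so no such test is given. In bulk tissue fewer cells of a type and less RNA per cell cannot be told apart.

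**Figure D2:**
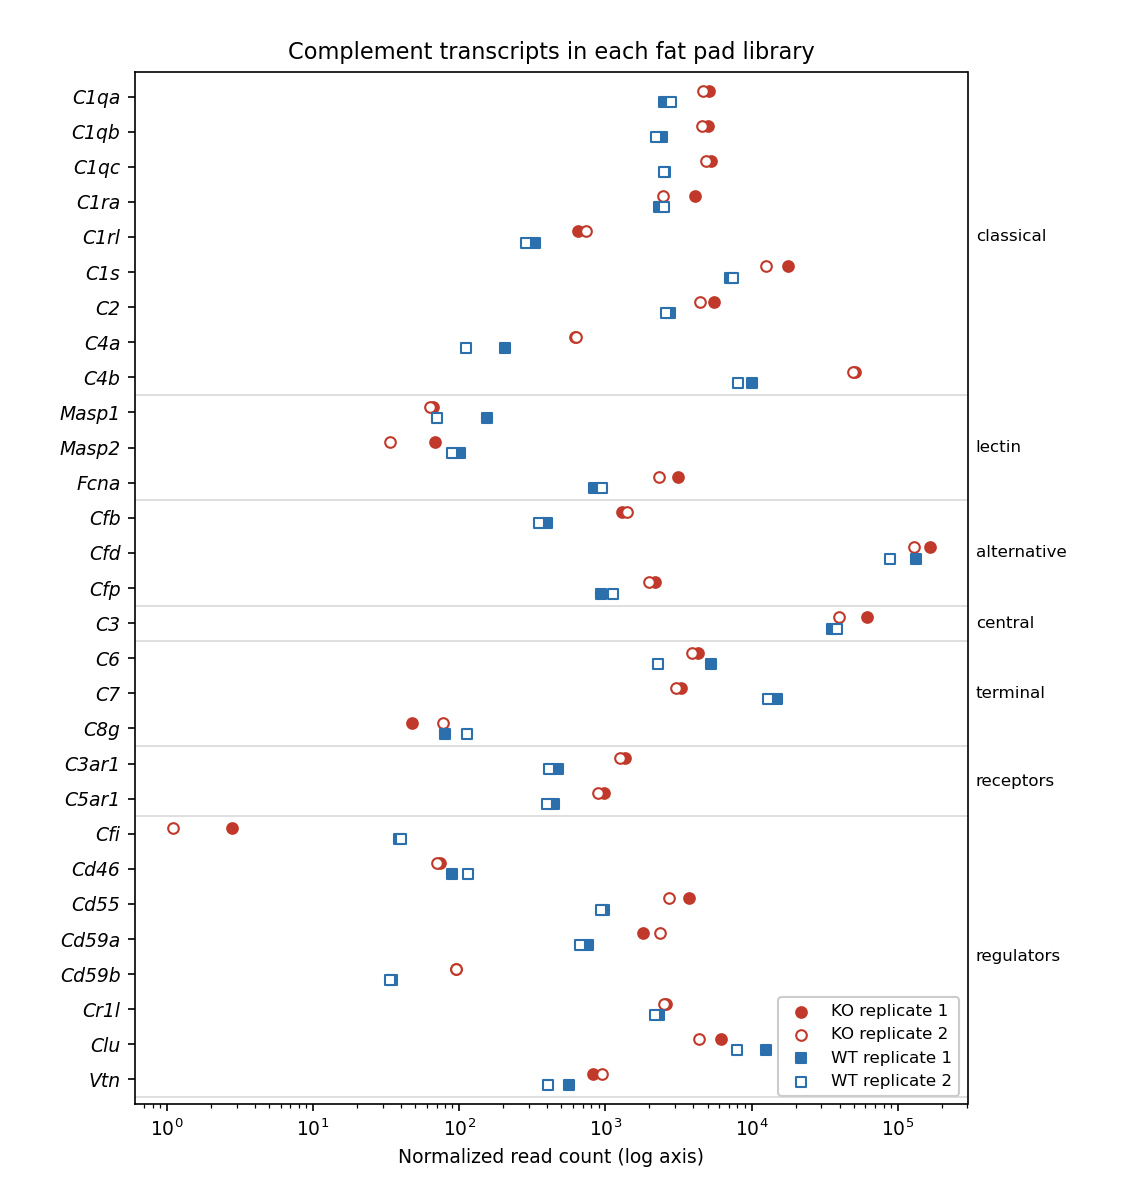
Each point is the normalized read count (x axis, log scale) of a tested complement gene in a single library, with KO as red circles above WT as blue squares, filled for replicate 1 and open for replicate 2, and genes grouped by role from top to bottom. C4b, Cfb and C3ar1 show KO points well to the right of WT points, C7 and Cfi well to the left, and Cfd, C1ra and C6 overlap.

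The classical pathway genes were higher in KO in 8 of 9, by between 0.88 and 2.48 on the log2 scale, and C1ra did not pass. Of all tested genes, 22.4% were called higher. The macrophage list stood at 0.193% and 0.173% of KO reads against 0.109% and 0.106% of WT reads, and its part in these rises was not tested. The 3 chains of C1q, which assemble into the recognition molecule, were encoded side by side on chromosome 4. C1qa had 5148 and 4624 normalized counts in KO and 2523 and 2798 in WT. C1qb had 5047 and 4556 in KO against 2445 and 2214 in WT, and C1qc had 5261 and 4844 in KO against 2547 and 2503 in WT. All 3 chains were thus at similar counts within each library, and every KO value exceeded every WT value. Of all tested genes, 38.9% had both KO libraries above both WT libraries. The log2 fold changes were 0.88 (SE 0.0924), 1.04 (SE 0.0899) and 1.00 (SE 0.0703), with limma adjusted p-values of 0.0036, 0.00235 and 0.00158. Per kilobase of exon the mean levels were 4700, 4410 and 2620 in KO and 2560, 2140 and 1310 in WT. Leaving out WT replicate 2 gave an adjusted p of 0.0573 for C1qa and 0.0551 for C1qb, and without WT replicate 1 it was 0.0542 for C1qa.

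Since all 3 C1q chains rose, the RefSeq promoters of C1qb (chr4:136886151-136886450) and C1qc (chr4:136892865-136893164), both on the minus strand of GRCm38.p6, are shown 5′ to 3′, from 250 bases before to 50 bases after the annotated start. Capitals mark matches, searched on both strands, to GAGGAAGT (a PU.1 motif), TTGCNNAA (C/EBP), TTCNNNGAA (STAT), TATAAA, an interferon response motif with 2 free central bases or an NF-kB motif with 3 free central bases.
C1qb: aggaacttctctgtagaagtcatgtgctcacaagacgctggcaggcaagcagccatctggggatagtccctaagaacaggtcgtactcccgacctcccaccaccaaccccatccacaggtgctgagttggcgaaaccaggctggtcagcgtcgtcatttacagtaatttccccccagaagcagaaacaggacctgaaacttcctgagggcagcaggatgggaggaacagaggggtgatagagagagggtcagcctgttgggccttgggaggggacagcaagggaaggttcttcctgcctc
C1qc: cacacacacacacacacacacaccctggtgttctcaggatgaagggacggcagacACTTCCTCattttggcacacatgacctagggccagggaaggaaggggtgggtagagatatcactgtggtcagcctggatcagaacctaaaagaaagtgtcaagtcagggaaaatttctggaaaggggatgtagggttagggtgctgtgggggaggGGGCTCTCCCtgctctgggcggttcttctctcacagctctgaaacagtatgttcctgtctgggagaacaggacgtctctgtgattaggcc
C1qc held a PU.1 match starting at base -195 and an NF-kB match at base -40, and C1qb held no match to these 6. The PU.1 letters occurred in 3.2% and the NF-kB letters in 5.55% of 32851 promoters of the same length, and in 1 and 3 of the 28 complement genes with an entry. No 2 different motifs overlapped. C1qa, C2, C4a, C4b, Masp1, Cfb, Cfi and Clu had no entry.

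C4b had the largest positive log2 fold change among the 29 genes. It (ENSMUSG00000073418, chromosome 17, 34728380 to 34743882, minus strand, GRCm38) encodes the C4 that supplies the covalently binding fragment of the classical and lectin convertases. C4b was at 51067 and 49309 in KO and 10045 and 8026 in WT, which is 50190 ± 1243 against 9035 ± 1428 (SD, n = 2 each). The KO pair was tight and far above the WT pair. The log2 fold change was 2.48 (SE 0.141, limma adjusted p = 0.00104), and over the 13 alternative settings it ran from 2.32 to 2.64 with an adjusted p of at most 0.0387. C4a, the neighbouring copy on chromosome 17 (34809092 to 34823464, GRCm38), was at 623 and 628 in KO and 206 and 112 in WT (2.04, SE 0.314, adjusted p = 0.0093). Of the 50-base stretches of C4b transcripts in GENCODE M21, 34.6% also occurred in C4a, and 30.6% of those of C4a occurred in C4b, so reads may be shared and the level of C4a is uncertain.

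Among the proteases, C1s, the enzyme that cuts C4 and C2, was at 17797 and 12541 in KO and 7138 and 7446 in WT (1.03, SE 0.185, adjusted p = 0.0138). C1ra, which activates C1s, was at 4073 and 2485 in KO and 2339 and 2525 in WT. KO replicate 2 lay between the WT libraries, so the groups overlapped (0.39, SE 0.251, adjusted p = 0.262), and without KO replicate 2 C1ra passed at 0.74 (adjusted p = 0.0157). C1rl, a protease related to C1r, was at 650 and 735 in KO and 329 and 287.5 in WT (1.17, SE 0.124, adjusted p = 0.00366). C2, the protease of the classical convertase, was at 5498 and 4437 in KO and 2754 and 2593 in WT (0.89, SE 0.123, adjusted p = 0.00705). Each of C1s, C1rl and C2 had both KO libraries above both WT libraries, as did 38.9% of all tested genes. Leaving out WT replicate 1 gave an adjusted p of 0.136 for C1s and 0.0832 for C2, and without WT replicate 2 it was 0.14 for C1s, 0.0656 for C1rl and 0.107 for C2. Of 50-base stretches, 48% of C1ra occurred in C1rb and 21.8% of C1s in C1s2, and 46.9% of C2 exon bases lay in exons of other genes, mostly the read-through gene Gm20547. Counts of these 3 are therefore uncertain.

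The lectin pathway was thinly represented. Fcna, encoding ficolin A, a sugar-binding recognition protein made by macrophages, was at 3125 and 2310 in KO and 832 and 945 in WT (1.60, SE 0.171, adjusted p = 0.00369). Its KO libraries were both well above the WT libraries. The call was lost without WT replicate 1 (adjusted p = 0.0704) and without WT replicate 2 (0.075). Masp1 and Masp2, the lectin pathway proteases, were low and did not pass. Masp1 was at 66.5 and 63.6 in KO and 155.9 and 70.7 in WT (adjusted p = 0.246), and WT replicate 1 alone was high. Masp2 was at 68.4 and 33.5 in KO and 101.9 and 89.3 in WT (adjusted p = 0.11), and without KO replicate 1 it passed at -1.48 (adjusted p = 0.0265), but 54.9% of its exon bases lay in exons of Tardbp on the other strand. The mannose-binding lectins Mbl1 and Mbl2 and the ficolin Fcnb had at most 2.0 normalized counts in any library, within the 3 reads that a count of 0 allows.

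Of the alternative pathway genes, Cfb and Cfp rose and Cfd did not pass, beside 22.4% higher and 24.4% lower of all tested genes. Cfd (ENSMUSG00000061780, chromosome 10, 79890853 to 79892655, plus strand, GRCm38), encoding adipsin, the protease that cuts factor B, was at 165346 and 128958 in KO and 133173 and 88626 in WT. KO replicate 2 fell below WT replicate 1, so the groups overlapped. Cfd averaged 147200 ± 25730 in KO and 110900 ± 31500 in WT (SD, n = 2 each), and its log2 fold change of 0.43 (SE 0.319, limma adjusted p = 0.324) did not pass. Over the 13 alternatives it ran from 0.13 to 0.72, with an adjusted p of at least 0.179. Per kilobase of exon Cfd was the most abundant of the 36, at 160000 in KO and 120000 in WT, followed by C3 at 9890 and 7200. In the same libraries Adipoq, encoding adiponectin and another adipocyte product, was at 140913 and 142401 in KO and 39441 and 29702 in WT (2.05, SE 0.208, adjusted p = 0.00332). Adipocyte genes varied, with 16 of the 20 listed called higher and 4 that did not pass. Slc2a4, among those 4, was at 5609 and 5802 in KO and 5069 and 4685 in WT (0.23, SE 0.0725, adjusted p = 0.0626). The part of adipocyte RNA in the Cfd values was not tested.

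Cfb, encoding factor B, the protease of the alternative convertase, was at 1308 and 1413 in KO and 401 and 354 in WT. The groups were well apart (1.85, SE 0.103, adjusted p = 0.00101, and at most 0.0391 over the alternatives). Of Cfb exon bases, 79.5% lay in exons of Gm20547. The sources used here do not say how such reads were counted, so the level of Cfb is uncertain. Cfp, encoding properdin, which stabilises that convertase, was at 2187 and 1983 in KO and 936 and 1127 in WT (1.02, SE 0.119, adjusted p = 0.00452, and at most 0.0492 over the alternatives).

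C3, the component on which all routes converge, did not pass. It was at 61779 and 39939 in KO and 35758 and 38275 in WT (0.43, SE 0.247, adjusted p = 0.222). KO replicate 1 was high, while KO replicate 2 was barely above WT replicate 2. The mesothelium list also differed within KO, at 0.0836% of reads in KO replicate 1 and 0.0156% in KO replicate 2, against 0.0715% and 0.104% in WT. Its genes went different ways against WT, so the list share does not rank KO replicate 1 against WT. Msln was at 4519 and 709 in KO and 485 and 845 in WT. Krt19, a keratin of the list, was at 2497 and 420 in KO and 8364 and 11854 in WT. The part of mesothelial RNA in the C3 and C1ra values was not tested. Hc, which encodes C5, had between 1.0 and 5.6 normalized counts in the 4 libraries, too low to test.

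Cfd and C3 had the highest group means per length, although C4b exceeded C3 in KO replicate 2, and the promoters of Cfd (chr10:79890603-79890902, plus strand) and C3 (chr17:57228087-57228386, minus strand) are printed in the same way.
Cfd: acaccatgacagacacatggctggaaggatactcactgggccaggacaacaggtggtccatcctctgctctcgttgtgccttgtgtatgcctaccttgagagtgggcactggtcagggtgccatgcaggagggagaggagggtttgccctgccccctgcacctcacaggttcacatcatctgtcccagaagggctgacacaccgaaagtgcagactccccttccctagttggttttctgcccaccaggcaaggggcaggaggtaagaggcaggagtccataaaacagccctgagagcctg
C3: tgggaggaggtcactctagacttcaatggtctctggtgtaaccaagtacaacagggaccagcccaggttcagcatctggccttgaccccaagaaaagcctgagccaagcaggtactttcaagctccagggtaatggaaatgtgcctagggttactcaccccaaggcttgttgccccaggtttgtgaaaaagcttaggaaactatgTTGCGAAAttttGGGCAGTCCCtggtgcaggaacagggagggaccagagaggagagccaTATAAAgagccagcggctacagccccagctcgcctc
Cfd held no match to the 6 motifs. C3 held a C/EBP match at base -45, an NF-kB match at base -33 and a TATA match at base 15. The C/EBP letters occurred in 10.8% of all promoters and in 6 of the 28 entries, and the TATA letters in 13.6% and in 5 of 28. A match describes letters and is no evidence of binding.

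The terminal components, which build the membrane attack complex, were tested for 3 genes, of which C7 fell in KO and C6 and C8g did not pass. Among all tested genes, 24.4% were called lower. C7 (ENSMUSG00000079105, chromosome 15, 4988762 to 5063740, minus strand, GRCm38), the subunit that lets the growing complex enter the membrane, was at 3289 and 3051 in KO and 14944 and 13004 in WT, which is 3170 ± 168 against 13970 ± 1372 (SD, n = 2 each). The KO pair lay far under the WT pair. Its log2 fold change was -2.14 (SE 0.0987, limma adjusted p = 0.000764), between -2.24 and -2.04 over the alternatives, with an adjusted p of at most 0.0292. The fall accompanied the male tract list, at 0.000369% and 0.000342% of KO reads against 1.23% and 1.09% of WT reads, and the smooth muscle list, at 0.121% and 0.13% against 1.81% and 2.43%, and their part was not tested. The C7 promoter (chr15:5063724-5064023, minus strand, GRCm38.p6) is shown because C7 was the most abundant complement gene that fell.
C7: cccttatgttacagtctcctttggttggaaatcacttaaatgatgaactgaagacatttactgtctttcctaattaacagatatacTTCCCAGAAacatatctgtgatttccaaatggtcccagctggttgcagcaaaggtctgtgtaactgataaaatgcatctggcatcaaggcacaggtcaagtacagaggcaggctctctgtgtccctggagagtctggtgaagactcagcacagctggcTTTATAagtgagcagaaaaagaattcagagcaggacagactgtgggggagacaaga
It held a STAT match at base -164 and a TATA match at base -6, and the STAT letters occurred in 8.3% of all promoters and in 5 of the 28 entries.

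C6, which joins the complex before C7, was at 4293 and 3891 in KO and 5307 and 2276 in WT. The WT libraries lay on either side of the KO pair (0.23, SE 0.42, adjusted p = 0.674). The direction depended on which WT library was kept: leaving out WT replicate 1 gave a log2 fold change of 0.84 (adjusted p = 0.0493) and leaving out WT replicate 2 gave -0.38 (adjusted p = 0.128). C8g, a C8 chain, was at 47.8 and 77.0 in KO and 79.5 and 113.5 in WT (adjusted p = 0.192). C8a, C8b and C9, which are liver products, had at most 2.0 normalized counts, and C9 had no read in any library. The hepatocyte list took 0.0019% and 0.00269% of KO reads and 0.00296% and 0.00172% of WT reads, with 3 of its 12 genes at 0 in both KO libraries and 1 at 0 in both WT libraries. Its genes went both ways. Alb was at 555 and 532 in KO and 161 and 70.7 in WT, and Fga was at 0 in both KO libraries and 211 and 188 in WT.

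Both anaphylatoxin receptors were called higher in KO, as were 22.4% of all tested genes. C3ar1, the receptor for the C3a fragment on myeloid cells, was at 1359 and 1260 in KO and 472 and 408 in WT (1.57, SE 0.107, adjusted p = 0.00146, and at most 0.042 over the alternatives). C5ar1, the receptor for C5a, was at 982 and 896 in KO and 446 and 401 in WT (1.15, SE 0.103, adjusted p = 0.00253, or 0.0551 without WT replicate 2). Neither overlapped between groups, and both KO libraries lay above both WT libraries in 38.9% of all tested genes and below in 40.6%. Csf1r, the macrophage growth factor receptor, was at 7803 and 7225 in KO and 3779 and 3533 in WT (1.04, SE 0.0774, adjusted p = 0.00175). Of the macrophage list, 16 of 21 were called higher and 5 did not pass, among them Cx3cr1 at -0.74 (SE 0.266, adjusted p = 0.0829).

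**Figure D3:**
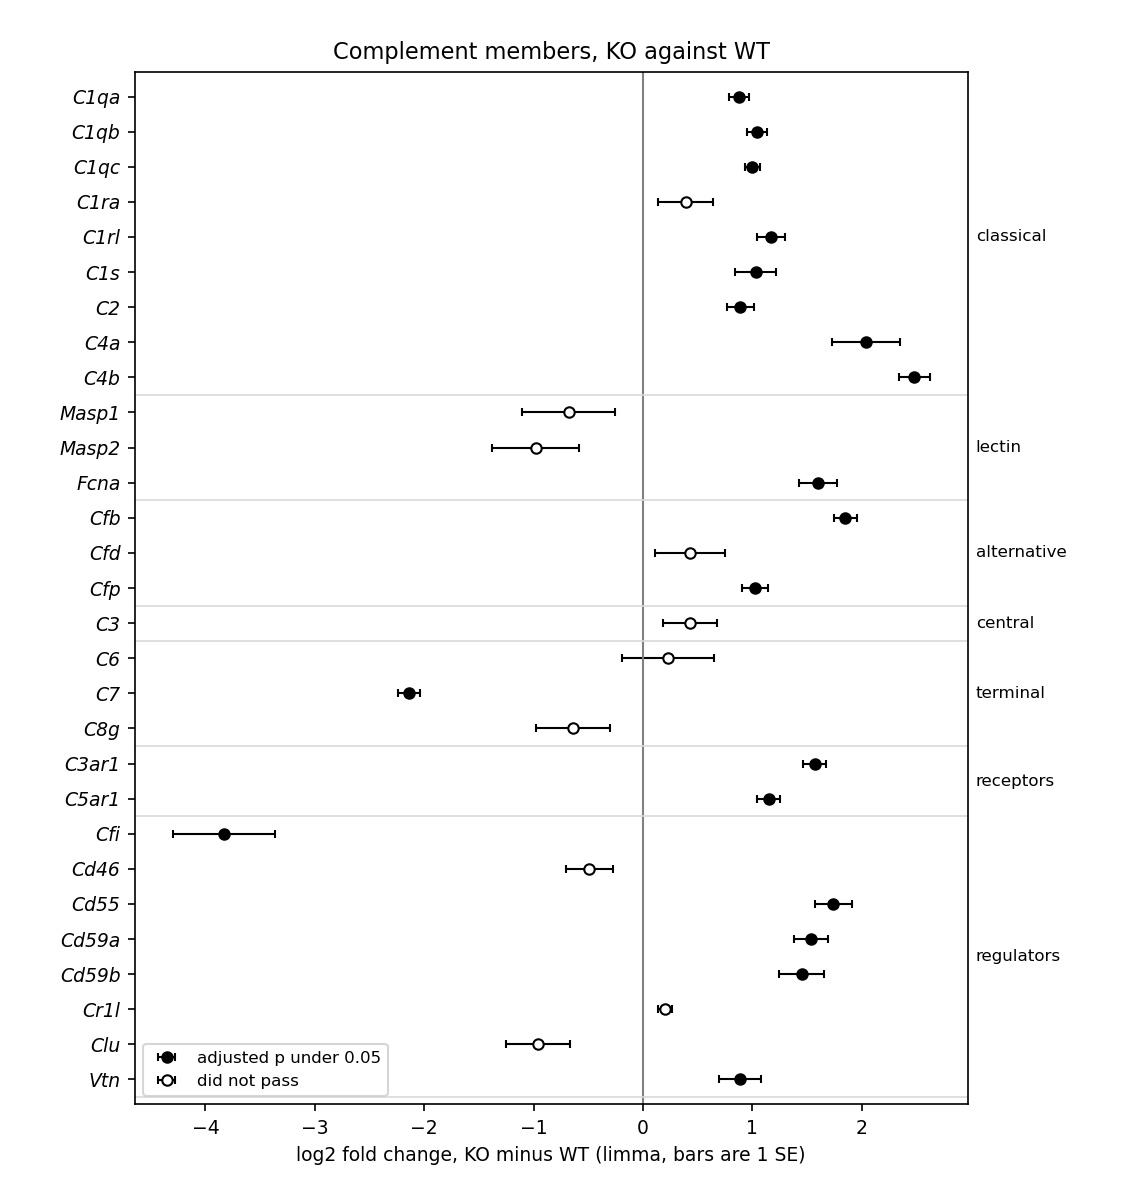
Points give the log2 fold change, KO minus WT (x axis), of each tested complement gene with bars of 1 SE from limma, filled where the adjusted p was under 0.05. Early classical components and both receptors lie right of 0, with C4b farthest at 2.48, while C7 at -2.14 and Cfi at -3.83 lie left of it.

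Of 8 regulators, 4 rose, 1 fell and 3 did not pass, beside 22.4% higher and 24.4% lower of all tested genes. The 1 that fell, Cfi, passed the minimum mean through the WT libraries. Cd55, decay-accelerating factor, which dissociates the convertases, was at 3737 and 2717 in KO and 979 and 933 in WT (1.74, SE 0.168, adjusted p = 0.00295). Cd59a, which blocks assembly of the membrane attack complex, was at 1816 and 2369 in KO and 755 and 668 in WT (1.54, SE 0.156, adjusted p = 0.00327). Its paralog Cd59b, best known from testis, was at 94.6 and 94.8 in KO and 34.6 and 33.5 in WT (1.45, SE 0.206, adjusted p = 0.00751). In all 3 both KO libraries were above both WT libraries, as in 38.9% of all tested genes. Leaving out WT replicate 1 gave an adjusted p of 0.0626, 0.058 and 0.0648 for Cd55, Cd59a and Cd59b, and without WT replicate 2 it was 0.078, 0.077 and 0.0759. Of Cd59b 50-base stretches, 20.1% occurred in other genes.

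The remaining membrane regulators did not pass. Cr1l, the mouse C3b-binding regulator called Crry, was at 2601 and 2531 in KO and 2316 and 2169 in WT, apart but close (0.20, SE 0.0666, adjusted p = 0.0737). Cd46, which in rodents is largely confined to sperm, was at 74.0 and 70.3 in KO and 89.7 and 115.4 in WT (adjusted p = 0.131).

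Among the soluble regulators, Vtn, encoding vitronectin, which keeps terminal complexes out of membranes, was at 826 and 954 in KO and 563 and 405 in WT (0.89, SE 0.191, adjusted p = 0.0222). That call was lost on leaving out any library, with an adjusted p of 0.0542 without WT replicate 1, 0.106 without WT replicate 2, 0.0509 without KO replicate 1 and 0.0886 without KO replicate 2. Clu, encoding clusterin, a terminal pathway inhibitor that is abundant in epididymis, was at 6156 and 4345 in KO and 12619 and 7970 in WT. The KO values were under both WT values, with wide spread in each pair (-0.96, SE 0.289, limma adjusted p = 0.0545). By DESeq2 the value was -0.98 (adjusted p = 0.00169), and the authors' deposited table gives -0.96 with an adjusted p of 0.00196. Cfi, factor I, which inactivates C3b and C4b, was at 2.8 and 1.1 in KO, from 3 and 1 reads, and 38.7 and 40.0 in WT (-3.83, SE 0.468, adjusted p = 0.00511). It passed the minimum mean through the WT libraries, and the call was lost when WT replicate 1 (0.055) or WT replicate 2 (0.0674) was left out. Beside Clu and Cfi, Crisp1, an epididymal secretory gene, was at 108 and 93.7 in KO and 343811 and 334537 in WT, and the part of male tract RNA was not tested.

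Because adipocyte and macrophage transcripts also differed between the groups, each gene was set against those lists within its library, as a description with no test. The mean log2 level of the adipocyte list was 1.68 higher and that of the macrophage list 0.80 higher in KO. Subtraction lowers the difference of every gene by these amounts, so a gene unchanged as deposited lies below 0. The shares of all tested genes on these scales were not counted, so the counts below are not shown to be particular to complement genes. C4b stayed higher in KO on both scales. Relative to the adipocyte mean it was at -0.20 and -0.39 in KO and -1.26 and -0.94 in WT, a difference of 0.80, and relative to the macrophage mean the difference was 1.68. C4a was the other gene of the 29 whose KO values both exceeded the WT values relative to adipocyte genes (difference 0.36), whereas 20 of the 29 were lower in both KO libraries and 7 overlapped. Cfd was at 1.49 and 1.00 in KO and 2.47 and 2.52 in WT on that scale, a difference of -1.25. Relative to macrophage genes, 12 of the 29 were higher in both KO libraries, 8 were lower in both and 9 overlapped. The 12 held C4a (1.24), Cfb (1.05), Cd55 (0.94), Fcna (0.80), C3ar1 (0.77), C1qb (0.24) and C1qc (0.20), while C1qa overlapped at 0.08. C7 was lower on every scale, by -3.82 relative to adipocyte genes, by -2.94 relative to macrophage genes and by -2.61 relative to fibroblast genes.

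**Figure D4:**
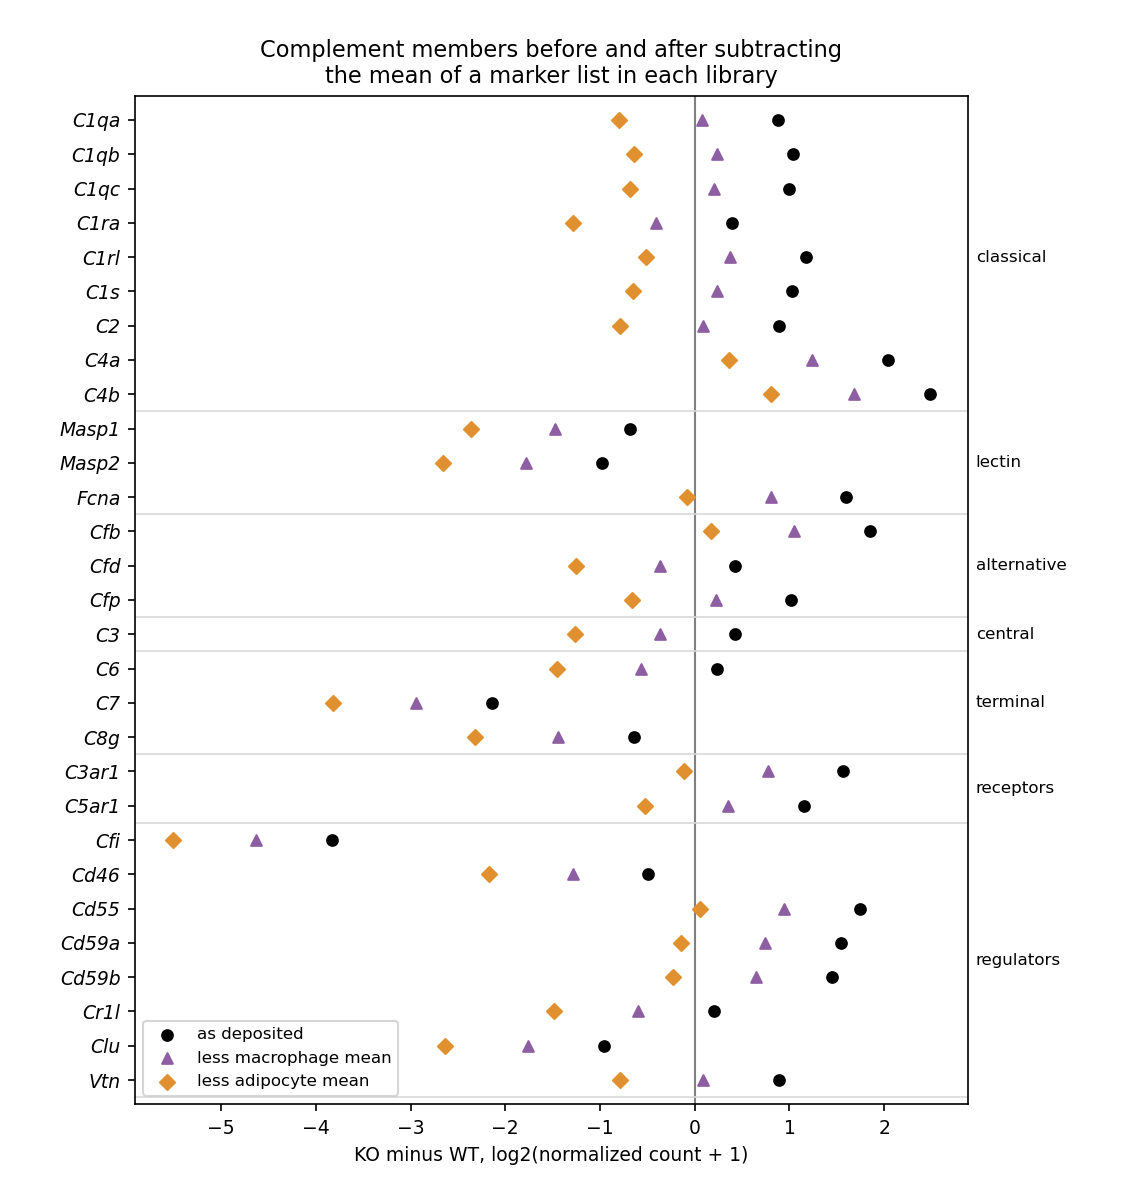
For each tested complement gene the x axis gives the KO minus WT difference in log2(normalized count + 1) as deposited (black circles), after subtracting the macrophage list mean of each library (purple triangles) and after subtracting the mature adipocyte mean (orange diamonds). C4b remains right of 0 in all 3 versions (2.48, 1.68 and 0.80), the C1q chains lie near 0 relative to macrophages, and C7 lies left of 0 throughout.

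Other genes of the pathway were read from a list of 37 symbols, of which 33 had a row and 20 were tested. Of these 8 rose and 5 fell, the other 7 missing the threshold (median 0.30 on the log2 scale), beside 22.4% and 24.4% of all genes. The myeloid complement receptor subunits rose: Itgb2, the shared beta chain, by 1.14 (SE 0.103, adjusted p = 0.00258), Itgam by 0.62 (SE 0.134, adjusted p = 0.0226) and Itgax by 1.48 (SE 0.398, adjusted p = 0.0402). Cd93, a C1q receptor-related glycoprotein, rose by 1.10 (SE 0.14, adjusted p = 0.0057) and the pentraxin Ptx3, which binds C1q, by 2.38 (SE 0.332, adjusted p = 0.00721). Pros1, the anticoagulant protein S, rose by 1.07 (SE 0.0835, adjusted p = 0.00192), and Thbd, thrombomodulin, by 0.83 (SE 0.14, adjusted p = 0.0116). Serping1, the C1 inhibitor, was at 21916 and 17838 in KO and 13155 and 14806 in WT (0.50, SE 0.141, adjusted p = 0.0448), a call lost with edgeR (0.057), upper-quartile scaling (0.0576) and TMM scaling (0.0549). Leaving out WT replicate 2 gave an adjusted p of 0.104 for Itgam, 0.259 for Itgax, 0.05 for Cd93, 0.0687 for Ptx3, 0.133 for Thbd and 0.167 for Serping1. Without WT replicate 1 it was 0.147 for Itgam, 0.146 for Itgax, 0.0715 for Ptx3, 0.112 for Thbd and 0.235 for Serping1. Without KO replicate 1 it was 0.0694 for Itgam and 0.129 for Serping1, and without KO replicate 2 it was 0.0952 for Itgax. With the replicate number as a block, Itgam (0.0549), Itgax (0.0781) and Serping1 (0.101) did not pass, which left 5 of the list higher.

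The 5 that fell were C4bp, Cpn1, Susd4, Csmd1 and Cr2. C4bp, the C4b-binding protein, had 0 and 1.1 normalized counts in KO and 1925 and 1296 in WT. From 1 KO read and 3282 WT reads, WT exceeded KO 3130-fold, with an exact 95% counting interval of 562 to 124000 (limma adjusted p = 0.00077), and it passed the minimum mean through the WT libraries. Cpn1, the carboxypeptidase that trims anaphylatoxins, was at 16.9 and 5.6 in KO and 455 and 341 in WT (-5.19, SE 0.545, adjusted p = 0.00356). Susd4, a membrane complement inhibitor, fell by 3.01 (SE 0.177, adjusted p = 0.00112), Csmd1 fell by 3.13 (SE 0.276, adjusted p = 0.00244) and the B cell and follicular dendritic cell receptor Cr2 fell by 1.85 (SE 0.297, adjusted p = 0.0103). Leaving out WT replicate 1 gave an adjusted p of 0.0711 for Cpn1, 0.0569 for Csmd1 and 0.0559 for Cr2, and leaving out WT replicate 2 gave 0.0782, 0.0689 and 0.0566. These values stand beside the male tract list at 0.000369% and 0.000342% of KO reads against 1.23% and 1.09% of WT reads, whose part was not tested.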

How the data were processed

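RNA of 4 libraries was compared by genotype as labelled. Per the submitters' processing notes DESeq2 1.4.5, HTSeq 0.5.3, TopHat2 2.0.10 and CASAVA 1.8 were used with GRCm38, while the use of strand was not stated. The values deposited by the authors are normalized counts (a signal) per gene. Their deposited comparison adds a log2 fold change, a p-value, an adjusted p-value and a test score per gene. Each library's smallest step gave its whole reads (100% whole within 0.01). A count of 0 allows up to 3 reads. Genes with a mean of 10 or more were fitted with limma 3.58.1 (R 4.3.3, intensity trend, pseudocount 1). Replicates were not duplicates: chi-square over its degrees of freedom was 34.7 for KO and 49.0 for WT. The alternatives changed the pseudocount (0.5 or 5), the minimum mean (none or 50), the scaling (TMM or upper quartile) or the tool (DESeq2 1.42.0 or edgeR 4.0.16 on recovered reads), added the replicate block, or left out each library. The fits were tested on simulated data. The genes and lists were chosen with earlier results of these data known. The text names all 36 genes, every other pathway gene that passed and some whose direction turned, and the remaining pathway genes are not reported singly here. Positions, exon lengths and shared 50-base stretches came from GENCODE M21, and promoters from RefSeq (GRCm38.p6), where 28 of 36 genes matched, C1s as C1s1.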

Additional observations from a re-analysis of the deposited data

How the results depend on the processing

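The 17 higher and 2 lower complement calls were 17 and 2 with pseudocounts of 0.5 and 5, both scalings and edgeR. They were 17 and 3 with DESeq2 and the replicate block, where the added lower call was Clu. With no filter they were also 17 and 3, but Clu did not pass there (limma adjusted p = 0.0615). The added lower call with no filter was a gene below the minimum mean, too low to be read as a fall. With a mean of 50 or more they were 17 and 1, where Cfi was not tested. Leaving out each library gave 6 to 17 higher and 1 to 3 lower, 2 to 8 and 2 to 6 of the other pathway genes, and 524 to 2846 and 1061 to 3434 of all genes. With the replicate block, 5 other pathway genes were higher. The replicate numbers were not shown to pair libraries (correlation of replicate differences -0.009 over 16710 genes), and under the block Clu passed (adjusted p = 0.0106). Leaving out each library turned the direction of C6 (-0.38 to 0.84), Colec11 (-0.39 to 0.47), Vsig4 (-0.01 to 0.72) and Colec12 (-0.03 to 0.53), and Colec11 also turned with edgeR (-0.04) and DESeq2 (-0.03); no negative value passed. The cause of these changes was not tested, and each fit without a library also had fewer samples. With 2 libraries a group, a gene that missed the threshold is not shown to be unchanged.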

Other observations

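Several complement genes differed between the KO libraries. KO replicate 1 exceeded KO replicate 2 on the log2 scale by 0.71 for C1ra, 0.63 for C3, 0.57 for Colec12, 0.50 for C1s and 0.30 for Serping1, while the WT libraries differed by -0.11, -0.10, -0.04, -0.06 and -0.17 in the same order (replicate 1 minus replicate 2). Other genes went the opposite way between the KO libraries, with -0.95 for Itgax, -0.68 for C8g and -0.38 for Cd59a, against 0.61, -0.51 and 0.18 between the WT libraries. The mean log2 level of the mesothelium list was 10.71 in KO replicate 1 and 8.40 in KO replicate 2, against 9.78 and 10.45 in WT. That mean mixes genes such as Msln and Krt19, which went opposite ways between KO replicate 1 and the WT libraries. The mean of the fibroblast list was 13.21 and 12.88 in KO against 12.61 and 12.54 in WT. C4b, C4a and the C1q chains differed between the KO libraries by 0.15 or less. These genes were picked after their values were seen.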
